A study of Mus musculus with 53 samples.

Results

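Pericyte-enriched areas of the median eminence (ME) were compared with those of the cortex across 31 of the 53 GeoMx segments of the series, 17 from the ME and 14 from the cortex. Members were the segments titled as ME Desmin 1 to 17 and Cortex Desmin 2 to 15, which came from animals 2, 3 and 4. A segment is an area of a brain section from which the barcodes of hybridized RNA probes were released by light, collected and counted. All animals were *Pdgfra*-H2B-EGFP/+ mice with no treatment named in the labels, and this allele was therefore shared by both groups. EGFP in these mice sits in the nuclei of cells in which the *Pdgfra* locus is active, which in brain include perivascular fibroblasts and oligodendrocyte precursors, so that absence of GFP removes those nuclei but does not by itself mark a pericyte. The study collected areas positive for DES and negative for GFP from adult mice of both sexes and avoided large vessels to limit smooth muscle cells. Because DES and GFP chose the areas, their transcripts would be no finding. Animal 2 gave 1 ME and 2 cortex segments, animal 3 gave 13 and 6, and animal 4 gave 3 and 6. In the test across regions the animal was the unit of replication (n = 3). Where single segments of 1 animal are tested, the p-values cover the spread between areas of that mouse and not between mice. Animals 1 and 2 were run on another collection plate than animals 3 and 4. The main test compared ME and cortex sums within each animal. Ranges, profile correlations and separation of segments pool the animals unless a single animal is named.

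Pericytes are mural cells embedded in the basement membrane of capillaries, where they contact endothelial cells and help to set vessel diameter, endothelial maturation and the tightness of the vessel wall. In the cortex they cover capillaries that form the blood-brain barrier (BBB). The ME is a circumventricular organ at the base of the hypothalamus, with fenestrated capillaries through which neurohormones enter the portal blood. The comparison asks how the RNA content of pericyte-enriched areas differs between a leaky and a sealed vascular bed. The files and reference tables used here name 20175 probes by identifier and do not pair them with genes, so no gene, pathway or cell type marker could be read, the labelled cell type could not be checked against its markers, and negative control probes could not be set apart. An area also contains RNA of the cells around its vessels, and a larger number of cells of a type cannot be told apart from more RNA per cell.

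ME segments were small. They held 6 to 60 nuclei (median 21), against 28 to 162 (median 83) in the cortex segments. Their total counts ranged from 26490 to 140347 (median 51788), against 25864 to 656061 (median 269308). A median of 477 probes reached 10 counts in an ME segment and 9955.5 in a cortex segment. Counts per nucleus recorded for the area had a median of 2872 (1325 to 7064) in ME segments and 2843 (323 to 5210) in cortex segments. The difference of mean log2 counts per nucleus, ME minus cortex with segments of all animals pooled, was 0.18. A two-sided permutation test of segments within animals with 100000 resamples gave p = 0.741. The pooled difference also reflects how many segments each animal gave per region, and without animal 2 it was −0.11. Animals differed in direction. Total counts over total nuclei were 1324.5 in the ME and 469 in the cortex of animal 2, 2988 and 3666 in animal 3, and 1940 and 2962 in animal 4. The mean log2 ratio within an animal was −0.17 in animal 3 (two-sided exact permutation test, p = 0.458) and −0.56 in animal 4 (p = 0.143, exact). Animal 2 was shallow in both regions, with 26490 counts in its ME segment and 53932 in its pair of cortex segments.

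**Figure D1:**
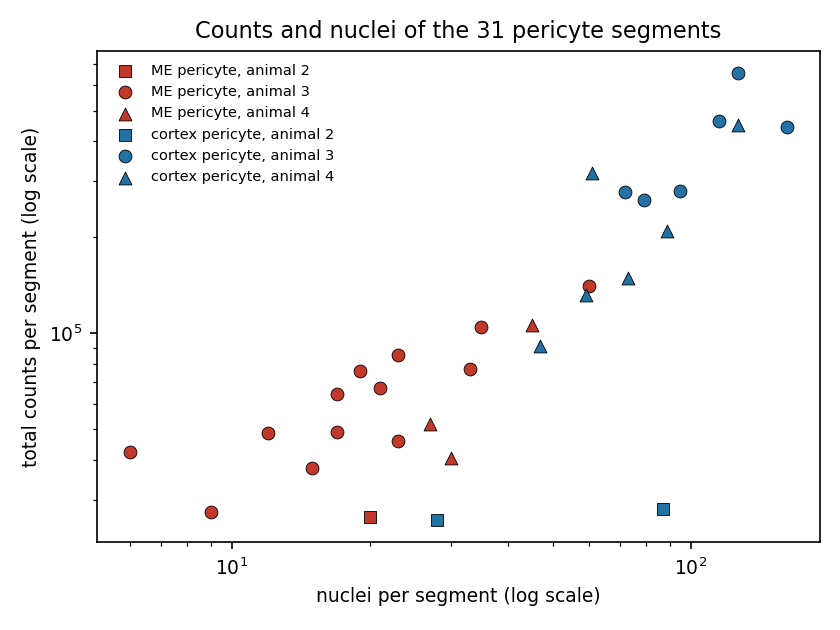
Total counts (y axis, log scale) against recorded nuclei (x axis, log scale) of each of the 31 segments, with color for region and marker shape for animal. ME segments lie at 6 to 60 nuclei, and the 3 segments of animal 2 lie at the bottom, between 25864 and 28068 counts.

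Segments of a region resembled each other more than they resembled the other region. Each segment was thinned at random to 25864 counts. Profiles were correlated over the 500 probes with the highest mean CPM over the segments of both regions. A probe that is low in either region enters this set only by being high in the other, which can lower r across regions. Probes of a segment are not independent, and the correlations are given as descriptions. Pairs of ME segments had a median Pearson r of 0.727 (0.640 to 0.764), and pairs of cortex segments had a median of 0.706 (0.431 to 0.757). Pairs across regions had a median of 0.137 (0.0481 to 0.444). Sharing an animal or a slide made little difference to these values. ME segments of different animals had a median r of 0.718, and ME and cortex segments from the same slide had a median of 0.136.

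A single cortex segment stood apart. Cortex segment 2 of animal 2 (28 nuclei, 25864 counts) had a median r of 0.474 to the other cortex segments and of 0.387 to ME segments, where no other cortex segment exceeded 0.173 to the ME. The other cortex segment of that animal had medians of 0.639 and 0.129. Without cortex segment 2, the pairs across regions reached at most 0.237. Among ME segments, segment 9 of animal 3 was the nearest to cortex, with a median r of 0.203 to cortex and 0.708 to the other ME segments. The calls, the separation of single segments and the folds of named probes in animal 2 are also given without cortex segment 2.

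**Figure D2:**
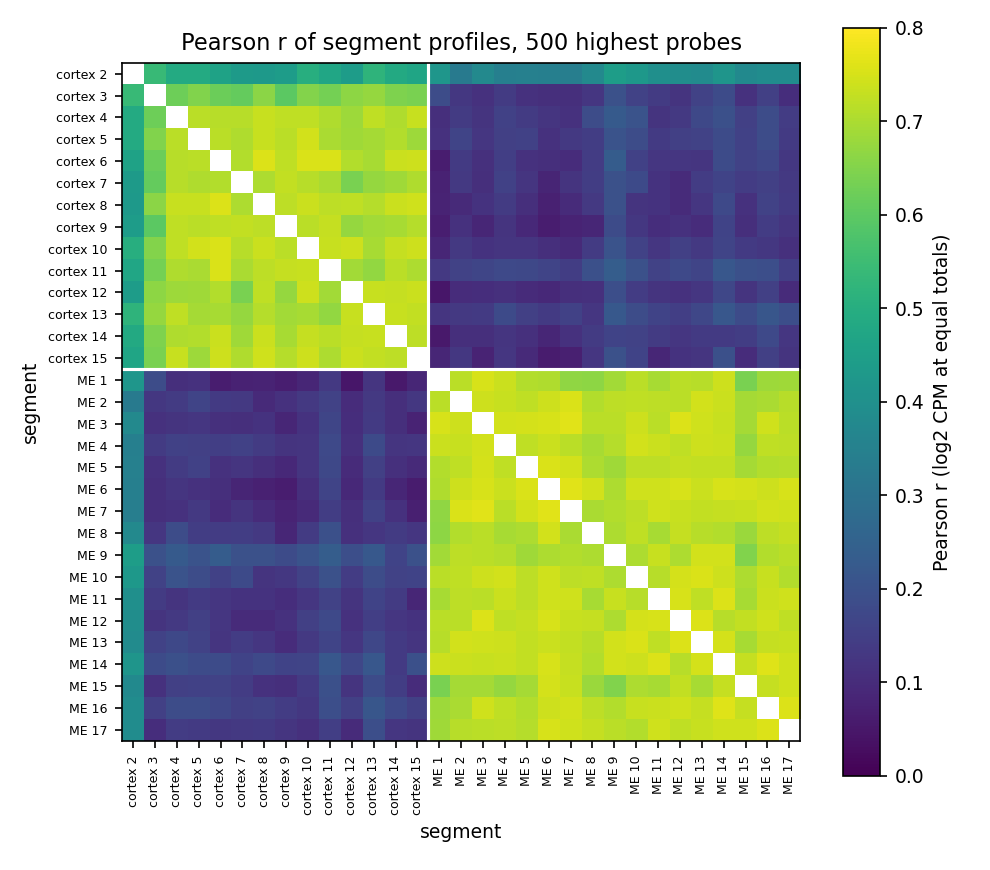
Pearson r between the profiles of each pair of the 31 segments (both axes, segment number within region, white lines between regions), over the 500 highest probes at equal totals. The ME block and the cortex block are bright (medians 0.727 and 0.706), the off-diagonal blocks are dark (median 0.137), and cortex segment 2 is intermediate to both.

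Of 19144 probes tested on counts summed per animal and region, 411 were higher in the ME (2.15% of those tested) and 964 were lower (5.04%), so that 70.1% of the 1375 calls (7.18%) were lower. Calls needed an adjusted p below 0.05 together with a log2 fold change larger than 1 in either direction, from edgeR's quasi-likelihood test (animals as blocks, Benjamini-Hochberg adjustment). The median log2 fold change over all probes tested was −0.06 with this scaling. Changes of more than 2 log2 units were seen in 65 higher and 208 lower probes, of more than 3 in 11 and 38, and of more than 4 in 5 and 6. Requiring more than 1 log2 unit in each of the 3 animals left 122 higher and 459 lower probes. In animals 3 and 4, the deeper pair, 228 and 686 did so. Animal 2 was shifted downward across the tested probes, with a median of −0.38 log2 units, against −0.04 (animal 3) and −0.10 (animal 4). Its bar of 1 log2 unit was thus nearer to the median probe for lower than for higher calls. Among the 3399 probes strong enough to test in animal 4 alone, 12.8% passed this bar upward in animal 2 and 37.7% downward. Without cortex segment 2 the calls numbered 419 higher and 960 lower. The share of lower calls fell when depth, which was greater in the cortex, was equalized, and when fewer probes were tested. With segments thinned to equal totals before summing, 264 higher and 302 lower probes were called among 1947 tested, so that 53.4% were lower. At full depth, 62.2% of calls were lower among the 8000 highest probes. Without animal 3, 230 and 273 were called among 2458 tested (54.3% lower). Without animal 4, 179 and 343 were called among 18434 tested (65.7% lower). Depth and the set of probes tested cannot be told apart here.

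The count of calls depended on the test. DESeq2 called 246 higher and 510 lower probes, and a mixed model fitted to the single segments of each probe called 99 and 258. Its formula is that of the study, which fitted it to a smaller, filtered set of genes. Here it was fitted to all 19144 tested probes, with absent counts raised to the smallest count. In no alternative was a probe called in the direction opposite to these calls. With 3 animals, 2 residual degrees of freedom remain per probe, and the p-values rest mostly on the variance shared between probes. An exact sign-flip test over 3 animals cannot give a p under 0.25.

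The probe with the smallest p among those higher in the ME was RTS0065115. Its level in single ME segments was 676 to 1487 CPM of all counts (median 1095), and in cortex segments it was 17.7 to 155 (median 32.7). The regions did not overlap, and the highest cortex value was that of cortex segment 2. Scaled by the upper quartile over the tested probes and averaged over animals, RTS0065115 was at 963 ± 234 normalized CPM in the ME and 61.1 ± 44.8 in the cortex (SD, n = 3 animals). Its log2 fold change was 4.66 (SE 0.31, adjusted p = 2.59e-47, edgeR). In animal 2, with 29 ME and 6 cortex counts, the ratio of CPM was 9.84. Without cortex segment 2, with 2 cortex counts left, it was 15.4 (95% interval 3.89 to 133, counting error only). The mixed model gave RTS0065115 a log2 difference of 4.41 and did not call it (adjusted p = 0.386).

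RTS0081264 was the other probe named in that direction. It ran from 440 to 1644 CPM (median 744) in ME segments and from 0 to 56.1 in cortex segments. The lowest ME segment was therefore far above the highest cortex segment. Per animal RTS0081264 was at 729 ± 153 normalized CPM in the ME and 25.5 ± 22.1 in the cortex (SD, n = 3), a log2 fold change of 4.47 (SE 0.30, adjusted p = 3.45e-46, edgeR). Animal 2 had 20 counts in the ME and 0 in the cortex. Set against a floor of 3 counts over its cortex segments, RTS0081264 was at least 13.6-fold higher in the ME of that animal, and at least 7.06-fold higher against the same floor in cortex segment 3 alone. The mixed model gave RTS0081264 a log2 difference of 4.54 and called it (adjusted p = 1.03e-13).

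RTS0072072 led the probes that were lower in the ME. It ran from 0 to 106 CPM (median 47.2) in ME segments and from 155 to 3937 (median 1781) in cortex segments. The lowest cortex value was again cortex segment 2, and in animals 3 and 4 no cortex segment was under 1398 CPM. Its normalized CPM was 39.3 ± 34.9 in the ME and 1918 ± 937 in the cortex (SD, n = 3 animals), a log2 fold change of −5.34 (SE 0.36, adjusted p = 3.45e-46, edgeR). In animal 2, RTS0072072 had 0 ME and 46 cortex counts and was at least 7.53-fold lower in the ME, with the floor of 3 counts, or at least 13.2-fold lower without cortex segment 2. The mixed model put its log2 difference at −4.95 and did not call it (adjusted p = 0.547).

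RTS0063209 behaved alike. ME segments held 0 to 105 CPM (median 47.2) and cortex segments 764 to 1888 (median 1114), with no overlap. For this probe cortex segment 2 was inside the range of the other cortex segments. Normalized CPM of RTS0063209 was 32.4 ± 29.1 in the ME and 1447 ± 382 in the cortex (SD, n = 3 animals), a log2 fold change of −4.70 (SE 0.33, adjusted p = 4.77e-42, edgeR). Animal 2 had 0 ME and 96 cortex counts, at least 15.7-fold lower in the ME by the same floor, or at least 16.7-fold lower without cortex segment 2. The mixed model gave RTS0063209 −5.14 and did not call it (adjusted p = 0.181).

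**Figure D3:**
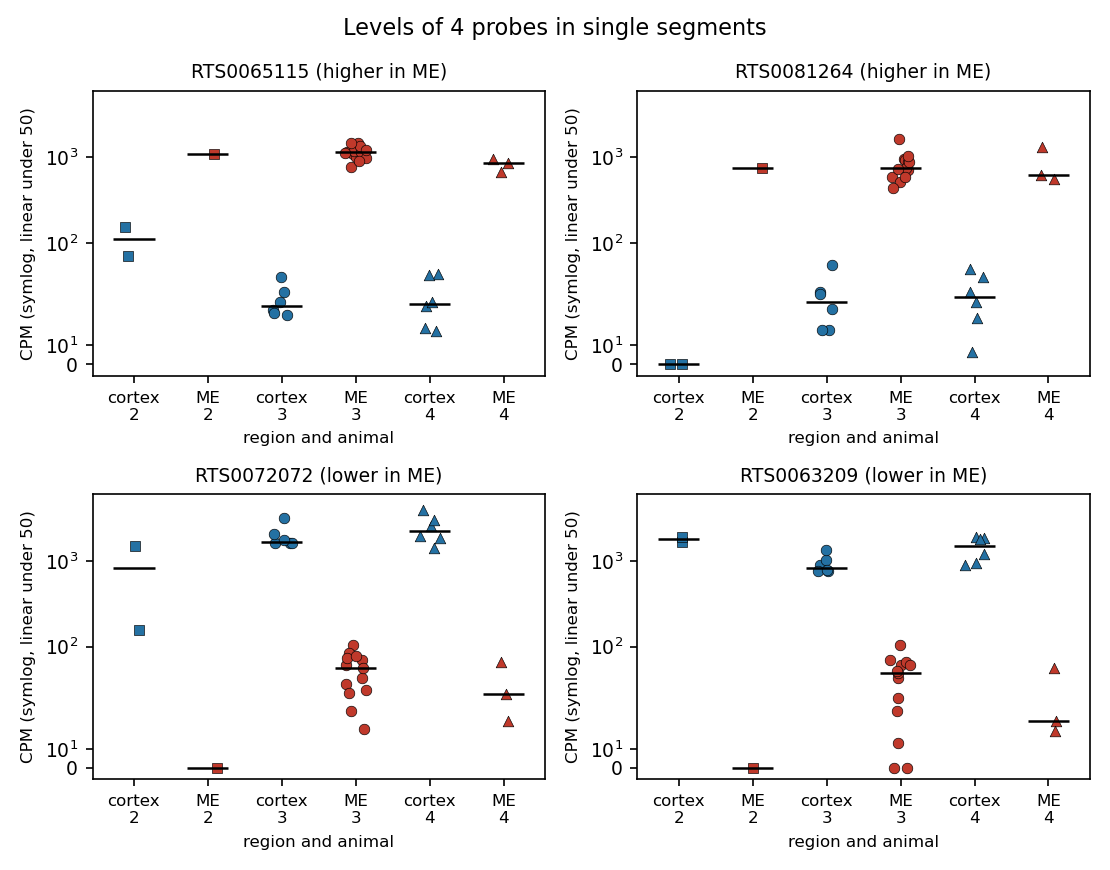
CPM of all counts (y axis, linear under 50 and logarithmic above) of 4 probes in each segment, by region and animal (x axis), with a bar at the median of each. In each panel the ME and cortex segments do not overlap, and RTS0072072 is lowest among cortex segments in animal 2, at 155 CPM.

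Calls were concentrated among the stronger probes. Among the 4034 probes with an average log2 CPM under 5, 0.174% were called higher and 0.223% lower in the ME. Between 6 and 7 the shares were 5.09% and 14.9% of 3048 probes, and between 7 and 8 they were 5.95% and 30.7% of 723 probes. Over 8, among 288 probes, 10.4% were higher and 27.1% lower. The share of probes with the same direction in all 3 animals moved with level too, from 23.6% under 5 to 68.8% over 8. Counting noise is larger for weak probes, and its part in this gradient was not tested.

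**Figure D4:**
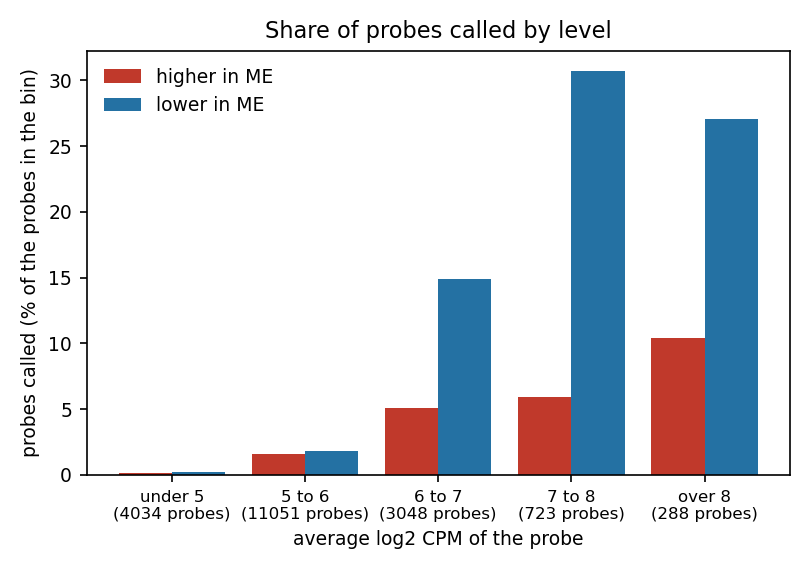
Percent of the probes in each range of average log2 CPM (x axis, with the number of probes) that were called higher or lower in the ME (y axis, bars from 0). Lower calls exceed higher calls in every range, by little under 6 (1.83% against 1.59% from 5 to 6) and by more from 6 up, where they are 14.9%, 30.7% and 27.1% of probes.

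In the region where they were lower, called probes lay near the median probe about as often as any tested probe did. The level of a probe was divided by that of the median probe of its region, which stands in for a background since negative controls could not be identified. In the cortex, 340 of the 411 higher probes (82.7%) were under 2 times the median probe, as were 85.7% of all tested probes. In the ME, 819 of the 964 lower probes (85.0%) were, against 86.2% of all. In the region of the higher level, the median called probe was at 3.11 times the median probe for higher and 2.92 times for lower calls. The remaining 71 higher and 145 lower probes were at least 2 times the median probe in both regions. They are the rest of the called sets after the 340 and the 819. Their shares at this level in the low region therefore also lie near those of all tested probes. In animal 2, the cortex sum was 0 for 66 of the 411 (16.1%, as for 16.1% of all tested probes) and the ME sum was 0 for 337 of the 964 (35.0%, against 36.5% of all). Fold changes of such probes in that animal depend on the prior count.

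The strongest probes of the regions overlapped in part. Of the 10 highest probes in each region, 8 were shared, and of the 200 highest, 99 were. Among the 200 highest cortex probes, 91 were called lower in the ME and 4 higher. Among the 200 highest ME probes, 46 were called higher and 7 lower. Across the median segment, RTS0065115 and RTS0081264 ranked 18 and 39 in the ME, against 9290.5 and 10498 in the cortex. RTS0072072 and RTS0063209 ranked 10 and 20 in the cortex and shared rank 5251 in the ME. Probes differ in how well they hybridize, so ranks order probe counts and not transcripts.

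Complete separation of all 31 single segments was rare. At unequal depth, with CPM of all counts, 63 probes had every ME segment above every cortex segment (0.329% of those tested) and 98 had every ME segment below (0.512%). Of these, 58 and 98 were among the called probes. With every segment thinned to 25864 counts, 17 and 22 of the same 19144 probes were separated. Without cortex segment 2, the numbers were 85 (0.444%) and 208 (1.09%), and in animals 3 and 4 they were 113 (0.59%) and 275 (1.44%). Within animal 3, with 13 ME and 6 cortex segments, 213 (1.11%) and 375 (1.96%) probes were separated, and within animal 4, with 3 and 6 segments, 928 (4.85%) and 1218 (6.36%) were. The number rises as segments become fewer. Of the 411 higher and 964 lower probes, 245 and 614 were separated in animal 4 and 156 and 368 in animal 3.

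Spread among the segments of a region, taken as a coefficient of variation, was larger in the ME wherever both regions gave a value. The common biological coefficient of variation, the spread between segments of the same animal beyond counting noise, was 21.6% in the ME and 11.2% in the cortex. ME values were larger within animal 3 (20.9% against 10.2%) and within animal 4 (25.9% against 12.8%). Depth and nuclei differ between regions. With every segment thinned to 25864 counts, the values were 22.4% and 17.1%, and without animal 2 they were 22.5% and 13.5%. The 2 cortex segments of animal 2 alone gave 42.0%. The profile correlations at equal totals were a little higher among ME pairs (median r 0.727) than among cortex pairs (0.706, or 0.712 without cortex segment 2). They include counting noise and depend on the range of levels among the 500 probes, so they do not measure the same spread. Over those probes at equal totals, the coefficient of variation was 23.8% in the ME and 18.5% in the cortex. The coefficients are single estimates over a set of probes, and their difference between regions was not tested. ME segments also held fewer nuclei, and the part of that in their spread was not tested.

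Probes called among the areas of 1 animal mostly had the same direction in another. Single segments of animal 3, with slide as a block, were tested as areas of that mouse alone (n = 1 animal), and gave 214 higher (18.8% of the 1136 probes strong enough to test) and 247 lower probes (21.7%). In animal 4, 212 of the 214 were higher in the ME and 245 of the 247 were lower. Of all 1136 probes, 45.8% were higher and 54.2% lower there. In the shallow animal 2, 161 of 214 (75.2%) and 230 of 247 (93.1%) had that direction, where 36.3% and 61.2% of the 1136 probes did. The animals share no sample, so each gives its own values.

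The reverse gave a similar picture. Areas of animal 4, again n = 1 animal, gave 338 higher (9.94% of 3399 tested) and 564 lower probes (16.6%). Animal 3 had the same direction for 328 of 338 and 562 of 564, where 45.3% and 54.7% of the 3399 probes were higher and lower. The 3 slides of animal 3, taken singly, had 300, 318 and 320 of the 338 higher in the ME, where 36.9%, 44.7% and 42.3% of the 3399 probes were. They had 560, 560 and 562 of the 564 lower, where 63.0%, 55.2% and 57.6% of the 3399 were. Animal 2 had 236 of 338 (69.8%) higher against 31.4% of all, and 491 of 564 (87.1%) lower against 64.1%. Calls made in both animals numbered 153 higher, which is 71.5% of those of animal 3 and 45.3% of those of animal 4. The lower calls shared were 220, or 89.1% and 39.0%. Fewer probes were tested in animal 3 (1136) than in animal 4 (3399), which limits the shares of animal 4. No probe was called in opposite directions.

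Probes called from animals 3 and 4 only were then summed in segments of animals 1 and 2, which took no part in choosing them. That fit tested 20167 probes and called 472 higher (2.34%) and 963 lower (4.78%) in the ME. In the ME pericyte segment of animal 2, the 472 probes held 8.45% of all counts (exact 95% binomial interval 8.12 to 8.79) and the 963 held 4.73% (4.48 to 5.00). In cortex segment 3 of the same animal they held 2.84% (2.64 to 3.04) and 14.9% (14.5 to 15.4). Cortex segment 2 had 3.73% (3.51 to 3.97) and 9.94% (9.57 to 10.3), between the regions for both sets. The cortex pericyte segment of animal 1, which has no ME partner and entered no test, had 3.06% (2.89 to 3.23) and 15.7% (15.4 to 16.1). These intervals cover counting error only. In the animals that chose the probes, ME segments held 7.21 to 8.31% and 4.07 to 5.08%, and cortex segments 2.20 to 2.75% and 13.4 to 16.1%, as the choice fixes. For the higher set, the ME and cortex pericyte segments of animals 1 and 2 all lay above these ranges of their region.

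Segments of another type give the same axis a context. ME fibroblast segments, areas with GFP and without DES, were not used to choose the probes. In those of animals 1 and 2, the 472 probes held 7.12% and 6.82% of counts and the 963 held 5.34% and 5.61%. In the 18 of animals 3 and 4 the ranges were 6.22 to 7.83% and 4.02 to 4.45%, overlapping the ME pericyte segments in both. Pooled over animals, the summed levels thus placed ME areas of both kinds apart from cortex pericyte areas. Within animals 2 and 4 the ME kinds differed for the 472 probes. Pericyte segments held 8.45% in animal 2 against 6.82% in the fibroblast segment, and 7.21 to 7.43% in animal 4 against 6.22 to 6.79%. In animal 3 the ranges overlapped (7.23 to 8.31% and 6.77 to 7.83%). How far the shift belongs to pericytes or to tissue that both kinds of area contain was not tested. The lone cortex segment chosen by GFP (animal 2, 21654 counts) had 2.47% and 10.2%. Single probes also differed between the ME area types. RTS0081264 was at 40.7 to 410 CPM (median 245) in the 20 ME fibroblast segments, all below the lowest ME pericyte segment at 440, whereas RTS0065115 was at 981 to 2452 CPM (median 1894) there. RTS0072072 (0 to 83.1 CPM) and RTS0063209 (0 to 76.2 CPM) were low in ME fibroblast segments as in ME pericyte segments.

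**Figure D5:**
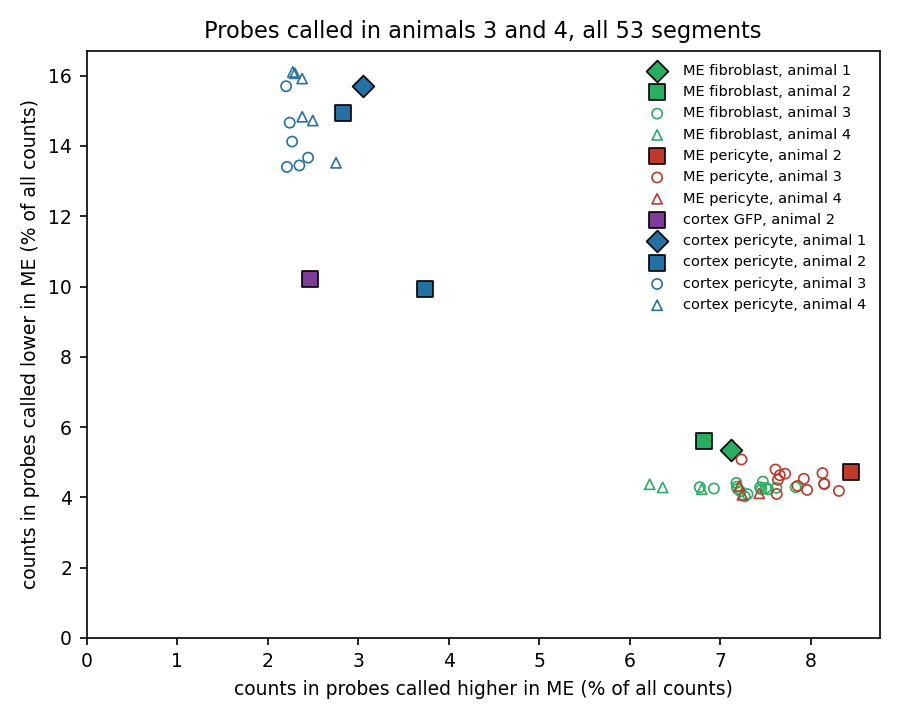
Percent of all counts in the 472 probes called higher (x axis) and the 963 called lower in the ME (y axis) from animals 3 and 4, for all 53 segments. Filled markers are segments of animals 1 and 2, which did not choose the probes: ME segments of both types lie at lower right, cortex segments at upper left, and cortex segment 2 and the cortex GFP segment lie near 10% on the y axis.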

How the data were processed

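The assay was GeoMx with the mouse whole transcriptome probe set. The authors processed reads with GeoMx NGS Pipeline 2.3.4, which aligned them to probe barcodes and removed duplicates by molecular identifier, and the counts of each probe were deposited unnormalized, with a file for every segment. The 893633 values listed are whole numbers from 1 up, and probes that a file leaves out count as 0. An automated unit check could not read 8 of the 53 files, whose values were checked when loaded. No column of values was left unused.

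Members, lists and tests were chosen with earlier results of these data known. Counts were summed per animal and region. After filterByExpr (minimum count 10) and scaling to the upper quartile (percentile 75), a robust quasi-likelihood test was run in edgeR 4.0.16 with limma 3.58.1 under R 4.3.3. Animals were blocks, since the ME and cortex sums of a pair are of the same mouse. Deviations from the group means correlated within animals at 0.013, 0.015 and 0.0065. SE is the log2 fold change over the square root of F and rests on the shared variance. Named probes are, per direction, the 2 with the lowest p among those called that moved alike in every animal. Log2 CPM used a prior count of 2, and profile correlations used log2 of CPM plus 20. Normalized CPM uses the tested probes, while values of single segments are CPM of all their counts. Alternatives were TMM, library totals, DESeq2 1.42.0, limma on means per animal, a mixed model (lmerTest 3.1.3, lme4 1.1.37), single segments, other filters, no block, thinned sums, and each animal or segment left out. Background subtraction and the filter that the study applied to genes of neighbouring cell types were not used here.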

Additional observations from a re-analysis of the deposited data

Results flagged for a closer look

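In the 2 groups of 4 to 10 segments, the cortex segments of animals 3 and 4, 20 sets of values were screened with Dixon's test, and 2 held a segment far from the others, where chance gives about 1 in 20. RTS0072072 was at 3111 CPM in cortex segment 8 of animal 3, against 1597 to 2056 in the other 5. The 411 probes higher in the ME held 2.32% of the counts of cortex segment 11 of animal 4, against 1.89 to 2.04% in the other 5, and this segment also had a median r of 0.173 to ME segments, the highest among cortex segments other than segment 2.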

How the results depend on the processing

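The count of calls moved with the test and when segments were thinned, and no setting called a probe opposite to its direction here. In place of 411 higher and 964 lower probes, DESeq2 called 246 and 510, limma on means per animal 122 and 299, the mixed model 99 and 258 (of which 99 and 222 were also called here), and single segments with the animal as a block 163 and 235, with 1046 probes tested. Animal 3 alone gave 214 and 247, and animal 4 alone gave 564 lower calls. Sums of thinned segments gave 264 and 302 with 1947 probes tested, and 53.4% of those calls were lower. Without replicate 2, 3 or 4 in turn, the range was 179 to 472 higher and 273 to 963 lower probes. The lowest were 179 higher without animal 4, where 18434 probes passed the filter, and 273 lower without animal 3, where 2458 did. Leaving out 1 segment at a time gave 394 to 472 and 884 to 990. Without the replicate block there were 414 higher and 990 lower probes, and the 4 named probes stayed called. TMM gave 66.1% and library totals 62.0% lower calls, with median log2 fold changes over all probes of −0.02 and 0.01.

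Of the 19144 probes tested, 17 higher and 22 lower had no overlap of segments after thinning. In animal 3 the numbers were 213 (1.11%) and 375 (1.96%), and in animal 4 they were 928 (4.85%) and 1218 (6.36%). Without cortex segment 2, 208 lower probes (1.09%) had no overlap. With an animal left out, 110 to 277 higher and 120 to 355 lower of the 19144 had none. The spread of ME segments was 25.9% in animal 4 and 20.9 to 25.6% with an animal left out. The spread of cortex segments was 42.0% in animal 2, 17.1% after thinning, 18.5% after thinning over the 500 highest probes, 13.5% after thinning without animal 2, and 10.4 to 13.2% with an animal left out. The log2 ratio of counts per nucleus changed sign, to −0.17 in animal 3, −0.56 in animal 4 and −0.23 for total counts over total nuclei, with −0.11 to 0.42 when an animal was left out. The cause of these changes was not tested. Of the alternatives, the values without cortex segment 2 for separation, spread and folds in animal 2, those within single animals for the spread and counts per nucleus, and thinning combined with another choice were added after seeing the data. Depth was low in most ME segments and in both cortex segments of animal 2, where the median probe had 1 count, against 2 in the median ME segment and 9 in the median cortex segment.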
